A study of Caenorhabditis elegans with 6 samples.

Results

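The genes that encode translation factors and aminoacyl-tRNA synthetases were examined for binding of ELT-3 in larvae of the nematode Caenorhabditis elegans. Members were the nuclear protein-coding genes of the WBcel235 assembly whose names start with eef-, eif-, ife-, iff- or ifg-, or with 1 letter followed by ars-. The rule gave 71 of 19973 genes, with 39 translation factors and 32 synthetases. The data were chromatin immunoprecipitation sequencing (ChIP-seq) peak lists from 1 group of samples. The animals were larvae of mixed sex at the third larval stage (L3), strain OP75, with the unc-119 allele ed3 on III and the transgene wgIs75, which adds ELT-3 with GFP and FLAG at its C terminus. There were 4 biological replicates, numbered 1, 2, 4 and 5, with no second condition. Chromatin came from whole animals, so binding in few cells and weak binding in many cannot be told apart, and no RNA was measured. This group, defined by gene name, was chosen with the peak summits in its promoters in these same lists known. The counts are therefore a description and no test was made of them.

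A gene counted as bound if at least 1 peak summit was found from 1000 bp upstream to 200 bp downstream of 1 of its annotated 5′ ends, which is called its promoter here. The optimal list held 1047 peaks that passed the authors' reproducibility threshold, and these were also the 1047 strongest of the 14525 peaks called on the pooled replicates. The strongest 3141 pooled peaks, 3 times that number, gave a second and looser list. Each replicate list had 30000 entries, background regions included, and its strongest 1047 and 3141 nuclear peaks were taken for comparison. The deposited signal value ranks peaks within 1 list only.

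ELT-3 is a GATA-type zinc finger transcription factor known from the larval epidermis. Initiation factors bring the initiator tRNA, the mRNA cap and the ribosomal subunits together. Elongation factors deliver charged tRNAs to the ribosome and move it along the mRNA, and aminoacyl-tRNA synthetases load each tRNA with its amino acid. Nearly all growing cells express these genes.

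The DNA at the bound promoters is shown for the 5 genes of the optimal list whose sequences are printed here and, for the glutamyl- and methionyl-tRNA synthetase genes ears-2 and mars-1, from the looser list. Each run reaches 50 bp to either side of the pooled summit, cut before the gene's own 5′ end, on the gene's strand, from the RefSeq sequence of WBcel235. The runs lie at chrII:8561392-8561492 (minus strand), chrX:7823238-7823338 (plus), chrIII:6972066-6972166 (minus), chrV:10965645-10965718 (plus), chrII:6968279-6968379 (minus), chrIV:390469-390542 (minus) and chrIV:11635746-11635846 (minus). Capitals mark words found on either strand. They are the GA repeat GAGAGA in eef-1A.2 and eef-1A.1, ACGCAG in iff-2 and eef-1G, and CGTCTC in iff-2 and eef-1A.2, words that are frequent at all summits of the optimal list. A site of the kind that GATA factors recognise is marked in mars-1 and in none of the other 6 runs. Of the 18 member summits in the looser list, that of mars-1 alone held such a site, so the runs do not represent its share. In eef-1A.1 a 10-base word, CACATCTAAC, is marked as well.
iff-2: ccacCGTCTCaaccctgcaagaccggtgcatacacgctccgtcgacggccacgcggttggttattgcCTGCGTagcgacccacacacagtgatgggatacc
eef-1A.2: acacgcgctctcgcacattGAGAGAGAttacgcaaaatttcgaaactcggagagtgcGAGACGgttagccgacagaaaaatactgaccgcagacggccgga
eef-1A.1: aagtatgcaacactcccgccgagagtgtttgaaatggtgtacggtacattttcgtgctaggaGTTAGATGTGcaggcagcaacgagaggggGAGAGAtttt
eef-1G: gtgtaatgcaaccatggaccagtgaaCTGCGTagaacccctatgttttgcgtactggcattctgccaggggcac
eif-2Bgamma: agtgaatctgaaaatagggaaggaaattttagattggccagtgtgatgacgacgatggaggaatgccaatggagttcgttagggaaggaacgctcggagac
ears-2: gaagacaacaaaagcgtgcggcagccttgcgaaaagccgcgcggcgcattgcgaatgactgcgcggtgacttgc
mars-1: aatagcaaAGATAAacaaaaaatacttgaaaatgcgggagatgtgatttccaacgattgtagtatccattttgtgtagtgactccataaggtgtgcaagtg

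In the optimal list, 7 of the 71 members were bound (9.86%), where 2.95% of all nuclear protein-coding genes were. They were iff-2, eef-2, eef-1A.2, eef-1A.1, eef-1G, eif-2Bgamma and cars-1, in order of signal. Elongation factor genes made up most of them, with 4 of 6 eef genes bound. Of the 11 eif-3 genes, which encode the largest initiation complex, 0 were bound, as were 0 of 7 eif-4, ife and ifg genes, which encode the cap-binding proteins, their scaffold and helicase relatives. Among the 32 synthetase genes 1 was bound. Ribosomal protein genes, the nearest functional relatives, had 26 of 78 bound (33.3%) by the same rule. A separate list of 25 other translation genes had 3 bound, the ABC-F ATPase gene abcf-2, the poly(A)-binding protein gene pab-2 and larp-1.

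The looser list added 10 members, so that 17 of 71 were bound (23.9%, with 7.84% of all genes). The eef genes reached 5 of 6, the eif-3 genes 3 of 11, the eif-2 genes 2 of 10 and the synthetases 6 of 32, with 0 of 7 eif-4, ife and ifg genes still. Ribosomal protein genes reached 43 of 78 and the other translation genes 7 of 25. At the limit of the optimal list, the weakest bound members were eif-2Bgamma (signal 44.1) and cars-1 (41.9), and the next below were ears-1 (37.2) and eef-1B.1 (35.6). At the limit of the looser list, eif-3.J (27) and mars-1 (26.6) lay inside and lars-2 (25.5), iars-1 (24.6), aars-1 (24.3), ife-2 (23.4) and nars-1 (22.2) outside.

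**Figure D1:**
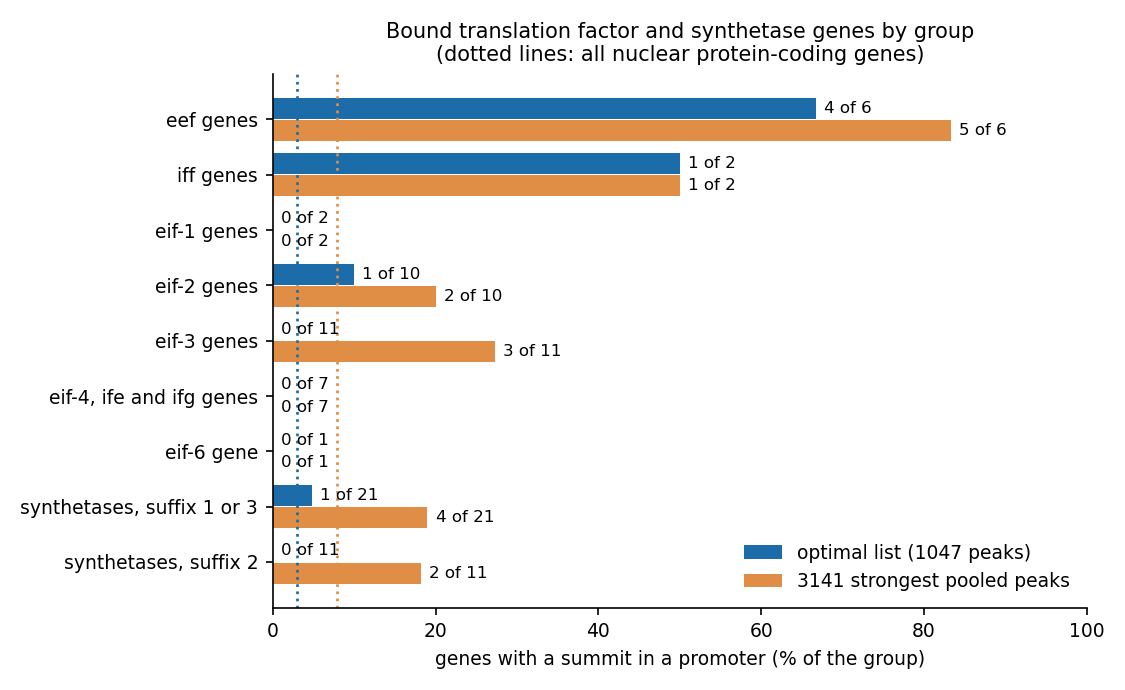
Share of each gene group with a summit in a promoter (percent, horizontal axis) for the optimal list and the 3141 strongest pooled peaks, with counts beside the bars and dotted lines for all nuclear protein-coding genes (2.95% and 7.84%). The eef genes have the longest bars of the groups drawn, 4 of 6 and 5 of 6, and the eif-1, eif-6 and the eif-4, ife and ifg groups have none.

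Among the elongation factor genes, eef-2 encodes the GTPase that translocates the ribosome. Its summit lay 15 bp downstream of the 5′ end, in the part of the first exon before the coding sequence, with pooled rank 79 and signal 92.7. In replicates 1, 2, 4 and 5 its strongest promoter peak ranked 232, 747, 109 and 109, so it was among the strongest 1047 peaks of every replicate. The genes eef-1A.1 and eef-1A.2 encode eEF1A, which brings charged tRNAs to the ribosome. At eef-1A.2 (pooled rank 192, signal 70.7, 366 bp upstream) the peak ranked 844 in replicate 1, 269 in replicate 4 and 119 in replicate 5, and replicate 2 listed no peak in the promoter. At eef-1A.1 (pooled rank 362, signal 57.1, 404 bp upstream) the ranks were 490, 85, 1290 and 1540. The replicates that ranked eef-1A.1 highest, 1 and 2, ranked eef-1A.2 lowest or did not list it. In replicate 1 the eef-1A.1 peak lay 508 bp upstream, more than 100 bp from the pooled summit, so of the replicates with a strong eef-1A.1 peak only replicate 2 had it at that summit.

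The other eef genes encode subunits of the factor that recharges eEF1A with GTP. At eef-1G (pooled rank 506, signal 51.3, 24 bp upstream) the ranks were 1888, 886 and 413 in replicates 1, 4 and 5, with no peak in replicate 2. At eef-1B.1 (pooled rank 1411, signal 35.6, 14 bp downstream) the strongest promoter peaks ranked 9767, 1720, 8739 and 1504. Those of replicates 1, 2 and 4 lay 517, 93 and 928 bp upstream, more than 100 bp from the pooled summit, so the rank of replicate 5 alone belongs to it. The remaining gene, eef-1B.2, had a summit only among the weaker pooled peaks, and all 6 eef genes were bound when every pooled peak was counted. Replicate 2 thus lacked a listed peak at eef-1A.2 and eef-1G, which ranked high in replicates 4 and 5.

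The strongest peak of any member lay at iff-2, which encodes eIF5A, the hypusine-carrying factor that helps the ribosome through difficult peptide bonds. It ranked 13 in the pooled list with signal 150, in a peak of 84 bp where the median width of the optimal list was 336 bp. The summit lay 75 bp upstream of iff-2. Its ranks were 903, 29, 5 and 13, so replicates 2, 4 and 5 held it near the top and replicate 1 far lower, yet within the strongest 1047. The related gene iff-1 had no pooled promoter peak.

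Among the initiation factors, eif-2Bgamma was bound in the optimal list. It encodes a subunit of eIF2B, the exchange factor that reloads eIF2 with GTP. The summit lay 681 bp upstream, in a coding exon of C15F1.5 and 65 bp from sup-39, annotated as a small nuclear RNA gene. A second pooled summit (rank 1362, signal 36.2) lay 913 bp upstream and 3 bp from sup-39. The strongest promoter peak ranked 308, 181, 1710 and 2120, but not at 1 place. The peaks of replicates 2 and 5 lay within 100 bp of the stronger pooled summit, and those of replicates 1 and 4 within 100 bp of the second. A peak at the second summit was listed in every replicate, at ranks 308, 1716, 1710 and 2590. Which gene these summits belong to was not tested.

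The remaining initiation factor genes of the looser list were weaker. The eIF2B gene eif-2Bbeta (pooled rank 2578, 118 bp upstream) ranked 9322, 7289, 3010 and 19095, with the replicate 2 peak 292 bp upstream, away from the pooled summit. The eIF3 genes eif-3.H, eif-3.I and eif-3.J had pooled ranks of 1727, 2533 and 2876. Among them the highest rank in any replicate was 2322, for eif-3.H in replicate 5, and eif-3.J was not listed in replicates 2 and 4. The eif-3.H summit lay 983 bp upstream, in a coding exon of C41D11.3. That of eif-3.J lay 925 bp upstream, in an exon of slc-25A46. Only replicate 5 had a peak within 100 bp of either summit. Outside the looser list, eif-3.G ranked 571 in replicate 1 and 15099 in replicate 4, and was not listed in replicates 2 and 5.

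Of the synthetases, cars-1, for cysteine, had the highest pooled rank (900, signal 41.9, 245 bp upstream). Its ranks were 2162, 3950, 1004 and 271, strong in replicates 4 and 5 only, and the replicate 2 peak lay 1 bp upstream, away from the pooled summit. At ears-1, for glutamate (pooled rank 1266, 590 bp upstream, in an exon of ZC434.3), they were 653, 5211, 9238 and 2204. At ears-2, also for glutamate (pooled rank 1553, signal 34.2, 24 bp upstream), they were 974, 2583, 3293 and 16006. Both glutamyl genes were therefore among the strongest 1047 peaks in replicate 1 alone. The same held for aars-2, for alanine, which ranked 329 in replicate 1 and was not listed in replicates 2 and 5. In replicate 4 it ranked 15831, with a peak 27 bp upstream that lay more than 100 bp from the pooled summit. The arginine gene rars-1 (pooled rank 1841) ranked 21023, 1260, 2112 and 9324. At mars-1 (pooled rank 3007) the ranks were 7299, 5373 and 2419 in replicates 2, 4 and 5, with no peak in replicate 1, and the replicate 4 peak lay 471 bp upstream, away from the pooled summit. No synthetase gene was among the strongest 1047 peaks of more than 2 replicates.

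**Figure D2:**
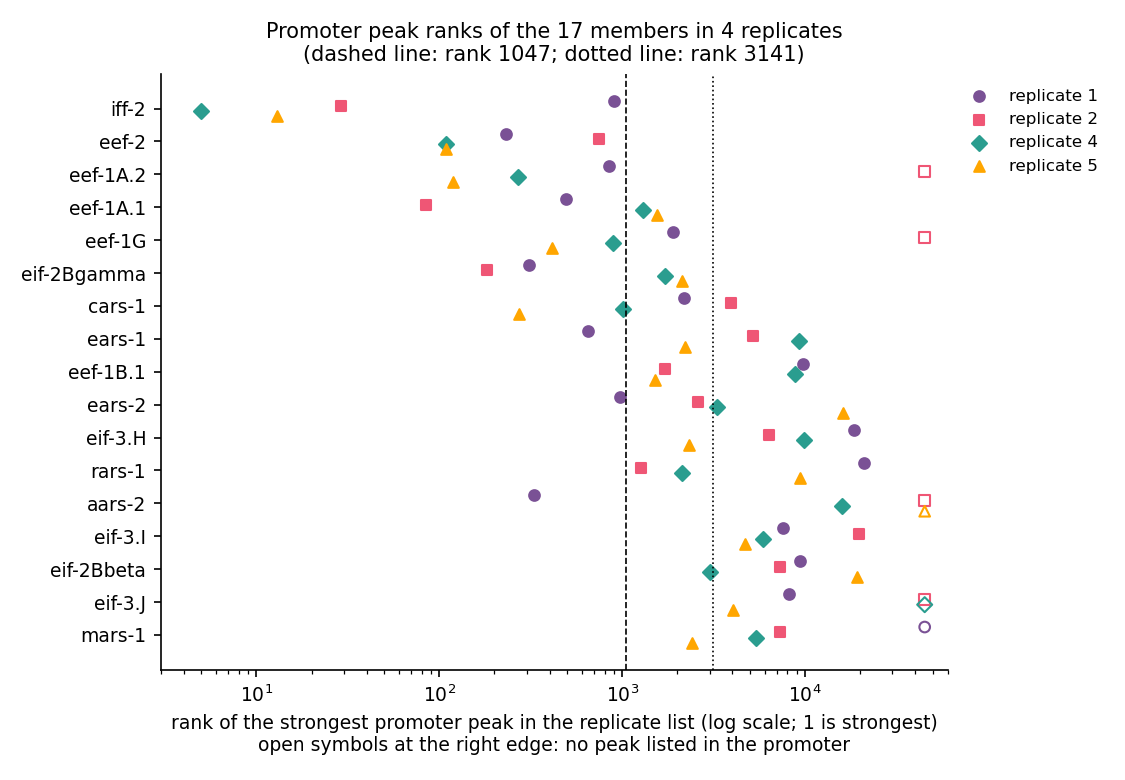
Rank of the strongest promoter peak (horizontal axis, log scale, 1 is strongest) of the 17 members bound in the looser list, in replicates 1, 2, 4 and 5, with open symbols where no peak was listed. Only iff-2 and eef-2 have all 4 symbols left of rank 1047, and aars-2 runs from rank 329 in replicate 1 to not listed in replicates 2 and 5.

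Over the replicates, the strongest 1047 peaks held 9, 4, 5 and 5 bound members in replicates 1, 2, 4 and 5 (mean 5.75 ± 2.22, SD, n = 4). The shares of all genes bound were 2.13%, 2.41%, 2.88% and 2.75%. For the strongest 3141 peaks the numbers were 12, 9, 10 and 14 (mean 11.2 ± 2.22), with 5.74%, 6.11%, 7.39% and 7.53% of all genes. With every listed peak they were 45, 39, 40 and 40 (mean 41 ± 2.71), with 39.0%, 38.4%, 40.3% and 40.5% of all genes. Replicate 1 had the most members and the fewest ribosomal protein genes among its strongest 1047 peaks, where the latter numbered 16, 23, 21 and 25. The members bound in replicate 1 alone were 3 synthetase genes, ears-1, ears-2 and aars-2, and eif-3.G. Synthetase genes numbered 3, 0, 1 and 1, and eef genes 3, 2, 3 and 3.

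At least 2 replicates bound 7 members among their strongest 1047 peaks, and these were the same 7 genes as in the optimal list, where 2.42% of all genes were bound in at least 2. The same replicates went into the optimal list, which makes the match a dependent one. All 4 replicates bound iff-2 and eef-2 (0.431% of all genes), 3 bound eef-1A.2, and 2 each bound eef-1A.1, eef-1G, eif-2Bgamma and cars-1. When the replicate peak also had to lie within 100 bp of the pooled summit, eef-1A.1 and eif-2Bgamma fell to 1 replicate each and the other 5 counts stayed. Among ribosomal protein genes, 25 were bound in at least 2 replicates and 8 in all 4.

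Summits of bound members lay at varied distances from the member's own 5′ end. In the optimal list they lay from 681 bp upstream to 15 bp downstream, with a median of 245 bp upstream. For the other promoter summits of that list the median was 255 bp upstream of the nearest 5′ end of any gene. That is a different measure, so the medians cannot be set side by side. The summits of iff-2, eef-2 and eef-1G lay within 100 bp of the 5′ end. In the looser list, 5 of the 17 lay within 100 bp and 5 more than 500 bp upstream. No summit was the strongest peak of 2 members.

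Several of these summits also lay in a promoter of another gene. In the optimal list, 4 of the 7 bound members shared their summit with a promoter of another protein-coding gene. Of the 486 other promoter summits, 103 (21.2%) were shared between genes. A summit in promoters of several genes has more chances to be a member's, so member summits are shared more often by construction. The shares of members and other summits therefore cannot be compared directly, in this list or the looser one. The partners were F54C9.14 for iff-2, the claspin gene clsp-1 for eef-2, the replication factor C gene rfc-4 for eef-1A.1 and ctf-4 for eef-1G. From the iff-2 summit, F54C9.14 was 860 bp away, where iff-2 was 75 bp away. The eef-1A.1 summit was nearer to rfc-4, at 137 bp, than to eef-1A.1. In the looser list 10 of 17 were shared, with 266 of 1374 other summits (19.4%). Among them, the rars-1 summit lay 89 bp from the RNA polymerase subunit gene rpb-8 and 920 bp from rars-1. Likewise the eif-2Bbeta summit was nearer to Y47H9C.8, at 86 bp. When each summit counted only for its nearest 5′ end, 6 members stayed bound in the optimal list (2.39% of all genes) and 14 in the looser list (6.46%). By that count ribosomal protein genes dropped further, from 26 to 14 of 78 in the optimal list (17.9%) and from 43 to 23 in the looser list (29.5%).

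**Figure D3:**
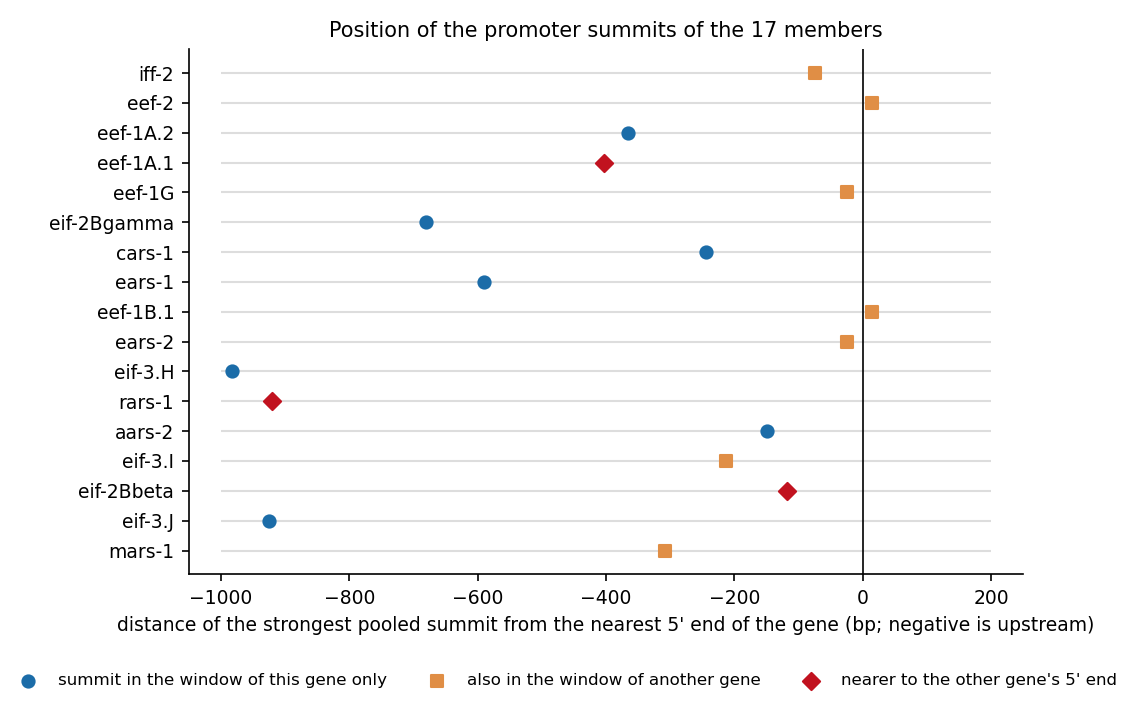
Distance in bp of the strongest pooled summit from the nearest 5′ end of each of the 17 members of the looser list (horizontal axis, negative upstream), with colour and shape for summits also in another gene's promoter. Summits of iff-2, eef-2, eef-1G, eef-1B.1 and ears-2 sit within 100 bp of the 5′ end, and 3 summits are nearer to another gene (eef-1A.1, rars-1 and eif-2Bbeta).

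GATA words were scarce at these summits. None of the 7 member summits of the optimal list held AGATAA or the related word AGATAG, and none held TGATAA or the related word TGATAG, within 50 bp on either strand (0 of 7, Wilson 95% interval 0 to 35.4%). Of the other promoter summits, 177 of 486 did (36.4%, interval 32.3 to 40.8). At the summits of ribosomal protein genes in the same list 4 of 24 did (16.7%, interval 6.68 to 35.9). The intervals of members and other summits overlap and cover counting error only. Widening the search to 100 bp still gave 0 of 7, and the bare letters GATA were present at 2, iff-2 and eef-2. In the looser list, 1 of 18 member summits held a GATA word, that of mars-1 (5.56%, interval 0.988 to 25.8), with 474 of 1374 other promoter summits (34.5%, interval 32.0 to 37.1) and 7 of 40 at ribosomal protein genes (17.5%, interval 8.75 to 31.9).

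Words frequent at the whole list's summits were present at some members. GAGAGA stood at eef-1A.2 and eef-1A.1, 2 of 7 member summits, with 21.6% of the other promoter summits. ACGCAG stood at iff-2 and eef-1G, and CGTCTC at iff-2 and eef-1A.2, each 2 of 7 with 14.2% of the others. Median GC content of the windows was 47.5% at members and 44.6% at the others. The longest stretch common to the iff-2 and eef-1A.2 windows was 8 bases.

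The windows of eef-2 and eef-1A.1 had a stretch of 16 bases in common, both strands searched, where every other pair of the 7 shared at most 9. A 10-base word from it, CACATCTAAC, was chosen after the sequences were seen, so its presence at these genes is no result. It lay within 50 bp of 6 of the 1047 optimal summits and in 0 of their flanking windows, and 130 times in the nuclear genome. Besides eef-2 and eef-1A.1, those summits lay in promoters of wwp-1, the tubulin gene tba-2, icd-2, which encodes a subunit of the nascent polypeptide-associated complex, and the ribosomal protein gene rpl-11.2. Among the other promoter summits of the optimal list the share was 0.823%.

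Weaker pooled peaks added members steadily. With the 50 strongest pooled peaks, 1 member was bound (1.41%, with 0.150% of all genes). With the strongest 500, 4 were (5.63%, with 1.42% of all genes). With all 14525 pooled peaks, 35 of 71 were bound (49.3%, with 24.2% of all genes) and 55 of 78 ribosomal protein genes (70.5%). The members' share lay above that of all genes and below that of ribosomal protein genes at each of the 10 list sizes compared. The remaining 36 members had no pooled promoter peak, among them eif-6, whose product keeps ribosomal subunits apart, both eif-1 genes and the tryptophan gene wars-1. In the replicate lists 8 members had no promoter peak at all, pars-1, dars-1, eif-2alpha, eif-3.F, eif-3.L, eif-6, fars-3 and yars-2. Of these, pars-1 did have a pooled promoter peak, at rank 7331. The share of all genes without a peak in any replicate list was not computed, so this count is no result about the members.

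**Figure D4:**
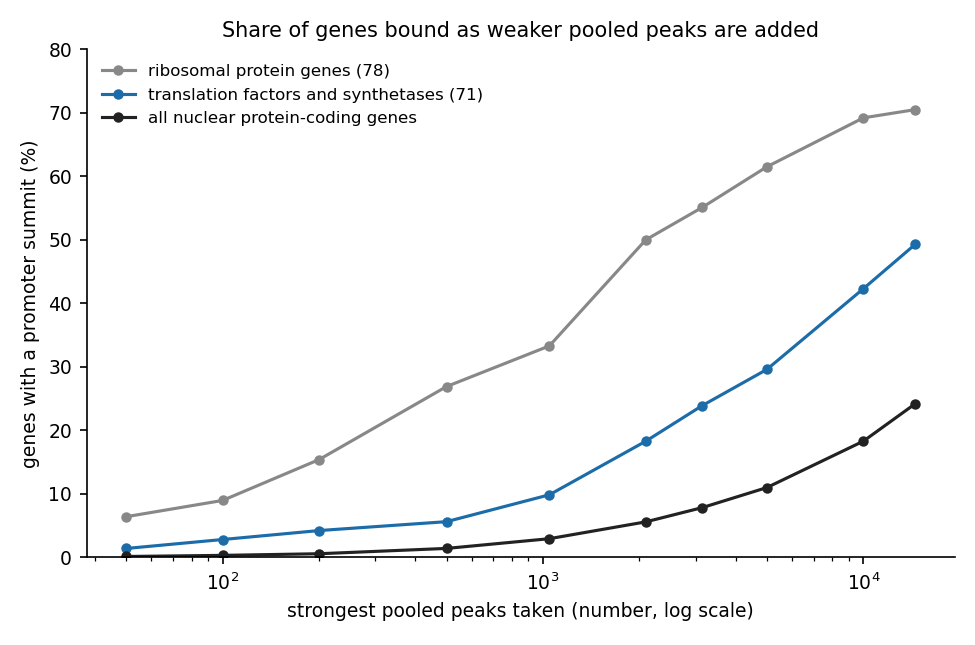
Share of genes with a promoter summit (percent, vertical axis) as more of the strongest pooled peaks are taken (horizontal axis, log scale), for the 71 members, 78 ribosomal protein genes and all nuclear protein-coding genes. At 1047 peaks the shares are 9.86%, 33.3% and 2.95%, and at 14525 peaks 49.3%, 70.5% and 24.2%.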

How the data were processed

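The files deposited by the authors are narrowPeak lists of ELT-3 ChIP-seq peaks on sonicated chromatin, from 6 libraries of 4 biological replicates (replicate 2 was 3 technical libraries with 1 list, assigned through the deposited listings of those libraries). Per the headers of those listings, there is 1 list per replicate, 1 pooled list and 1 optimal list that passed the irreproducible discovery rate (IDR) threshold, each called against a control not analysed here. The deposited signal value is the strength per peak given by the authors' caller, and served for ranking within a list. The sources used here do not name the caller or aligner. Read depth is also unknown, and the replicate spread stands for precision. Nothing says that replicates were separate cultures, so that spread may be technical. Lists on ce11 (WBcel235) were used, and those on ce10 were not. The 14 mitochondrial peaks of replicate 5 were left out.

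Genes and 5′ ends came from Ensembl release 115. A summit in several promoters counted for each gene. Replicate ranks were compared because the lists are of nearly equal length. Motifs were searched within 50 bp of summits on both strands, and shares have Wilson 95% intervals, which cover counting error only. Named genes were the members bound in the optimal list, the looser list or at least 2 replicates, and the next 5 below. Any other gene is named as a neighbour, a partner or an example chosen after its values were seen. Members, lists and limits were chosen with earlier results of these data known, so no test was made. Alternatives were other windows, assignments, list lengths and motif settings, and each replicate left out. Assignment and word search were tested on simulated data. Python 3.11.15, numpy 2.4.6, pandas 2.3.3, scipy 1.17.1 and matplotlib 3.10.9 were used.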

Additional observations from a re-analysis of the deposited data

Results flagged for a closer look

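In 7 of 24 quantities with a value per replicate, a single replicate lay far from the rest. With continuous values, chance alone produces such a gap about 1 time in 20. For small counts, where 1 gene can set the gap, that rate does not hold. Replicate 1 stood apart with 45 bound members among all its listed peaks, where the others had 39, 40 and 40. It also had 6 bound factor genes other than synthetases among its strongest 1047 peaks, where each other replicate had 4. Replicate 2 stood apart with 2 bound eef genes among its strongest peaks, where each other had 3, and with 4 among all its peaks, where each other had 6. Replicate 4 had 16 bound synthetase genes among all its peaks, where each other had 18. The iff-2 peak ranked 903 in replicate 1, and 29, 5 and 13 in the others. The ears-2 peak ranked 16006 in replicate 5, and 974, 2583 and 3293 in the others. The causes were not tested.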

How the results depend on the processing

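Of 47 alternatives run over 6 results, 40 stayed within the limits set for a change and 7 did not. Those limits were wide. The looser list, with 17 members, counted as unchanged at 12 (5.60% of all genes) with promoters from 500 bp upstream to 100 bp downstream. It also did at 21 (11.1% of all genes) with promoters from 2000 bp upstream to 500 bp downstream. With promoters from 2000 bp upstream to 500 bp downstream, 11 members were bound in the optimal list (4.20% of all genes) and a mean of 16 among the strongest 3141 peaks per replicate (mean 10.3% of all genes). With promoters from 500 bp upstream to 100 bp downstream that mean was 8.25 (4.51% of all genes). Taking all pooled peaks gave 35 members. Bound in at least 2 replicates were 11 members with the strongest 3141 peaks. The share of all genes was not computed for that count, so it is no result about the members. With the strongest 1047 peaks, 2 members were bound when every replicate had to hold the gene (0.431% of all genes). The letters GATA alone stood at 2 of the 7 optimal summits. Wider windows and longer lists take in more genes by construction. Leaving out each replicate in turn gave means of 4.67 to 6.33 members for the strongest 1047 peaks and 10.3 to 12 for the strongest 3141. It also gave 5 members in at least 2 replicates each time, where again the share of all genes was not computed. No paired analysis was possible because there is 1 group and no result comes from a test.

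Depth is unknown, so the absence of a listed peak does not show that a promoter was unbound. All counts rest on few genes, with 6 in the eef group, and on annotated 5′ ends. Operons were not annotated in the files used.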

Other observations

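Outside their own promoters, 2 members carried an optimal summit within the gene itself. They were eif-2Bdelta, for a further subunit of eIF2B, and fars-1, for a phenylalanyl-tRNA synthetase subunit. Neither gene had a pooled summit in its own promoter. Whether these summits lay in a promoter of another gene was not examined, and the share of all genes was not computed. Conversely, eif-1, an initiation factor of start codon selection, and vars-1, for valine, had a promoter peak listed in all 4 replicates and none in the pooled list. The distances of these peaks from the 5′ end were not alike in all 4 replicates. At eif-1 they were 868 and 812 bp upstream in replicates 1 and 5, within 100 bp of each other. In replicate 2 the distance was 405 bp upstream and in replicate 4 it was 66 bp downstream. At vars-1 the peaks lay 642 and 121 bp upstream in replicates 2 and 4 and 123 and 12 bp downstream in replicates 1 and 5. Between 38.4% and 40.5% of all genes had a promoter peak in each full replicate list. That is a looser condition than a peak in all 4 lists and none in the pooled list. The share of all genes that met the stricter condition was not computed. These genes were picked after their values were seen.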
